A study of Mus musculus with 4 samples.

Results

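Claudins are the membrane proteins that seal the gap between neighbouring cells at tight junctions, and occludin and the scaffold protein ZO-1 (gene Tjp1) belong to the same junctions. Transcripts of 9 such genes (Cldn1, Cldn2, Cldn3, Cldn5, Cldn10, Cldn11, Cldn12, Ocln and Tjp1) were followed in the cerebellum of Dicer mutant mice and their control littermates. The genes were picked from results on these same samples, as a set in which an astroglial, a myelin and an endothelial claudin can be told apart, so their differences between genotypes are given as descriptions without a test. The 9 genes had 12 probes on the array, of 41174 probes in all. Of the 12, 8 passed the filter on dim probes, and these stood for 8 of the 9 genes among 18025 genes tested.

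Mutants were mGfap-Cre; Dicer flox/flox mice, with Cre recombinase under a mouse Gfap promoter and 2 floxed alleles of the gene for Dicer, the enzyme that cuts microRNA precursors. Controls were mGfap-Cre; Dicer +/flox littermates, which carried the same Cre and 1 floxed allele, so recombination of that allele was possible in both groups. All mice were at postnatal day 30 and of mixed background. RNA came from the cerebellum without sorting of cells, and each of 4 biologically independent littermate pairs shared 1 two-colour array, with the mutant in Cy5 for pairs 1 and 3 and in Cy3 for pairs 2 and 4. In such tissue RNA, fewer cells of a type and less RNA per cell cannot be told apart.

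The permeability of a tight junction depends on which claudins it holds: some close the cleft and others form pores for ions. In brain, Cldn5 is known for the blood-brain barrier of endothelial cells, Cldn11 for the junctions between the wraps of myelin, and Cldn10, a pore former in epithelia, for its transcript in astrocytes and Bergmann glia. Cldn1, Cldn2 and Cldn3 are known from the epithelium of the choroid plexus, while Cldn12, Ocln and Tjp1 are found in many cell types.

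The array reads each transcript with probes of 60 bases. Probe sequences are shown for the claudin with the largest difference and for the dim second probes of Ocln and Tjp1, whose values stand beside a brighter probe of the same gene. They are as deposited, 5′ to 3′, with no part marked by capitals, and positions are in mouse build mm9 as deposited. No annotation of that build was used here, so exons and untranslated regions are not named.
Cldn10 probe A_51_P456465: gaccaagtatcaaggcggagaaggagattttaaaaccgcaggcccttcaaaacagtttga
Ocln probe A_52_P608097: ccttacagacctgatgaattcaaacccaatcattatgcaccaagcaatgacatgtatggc
Tjp1 probe A_52_P60338: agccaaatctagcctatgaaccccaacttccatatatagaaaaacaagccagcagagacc
The Cldn10 probe lies at chr14:119273459-119273518 on the plus strand and was listed against 2 RefSeq transcripts of the gene, so its intensity does not separate them. RefSeq places 2 start sites of Cldn10 in its table for build GRCm38.p6, 67.1 kb apart. The Ocln probe covers chr13:101309849-101311042 on the minus strand, a span of 1194 bases for 60 letters of probe, and the Tjp1 probe lies at chr7:72458154-72458213 on the minus strand.

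Dicer1 itself stood at 0.04 ± 0.22 (log2 ratio of mutant over control, mean ± SD, n = 4 pairs; limma adjusted p = 0.947), read by a probe at chromosome 12, 105960373 to 105960432. Whether this probe lies inside the floxed part was not given in the sources used here. The Purkinje cell genes Pcp2 and Calb1 and the granule cell genes Gabra6 and Cbln1 were well above background in both channels of all 4 arrays, so both genotypes carried markers of cerebellar neurons. Mutant channels had 26398 to 28907 detected probes on each array, against 26291 to 27718 for control channels. Over all genes tested, limma with Benjamini-Hochberg adjustment called 106 genes higher (0.588%) and 80 lower (0.444%) in mutants at an adjusted p under 0.05. The same fit gave 1692 of the 18025 genes an unadjusted p under 0.05. The median log2 ratio was 0.00 and the median SD over pairs 0.159. Precision is limited by having 4 arrays. Levels below are normalised intensities in arbitrary units, which compare animals for 1 probe and not 1 probe with another.

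Of the 9 genes, Cldn10 stood furthest from equal levels. Its intensity was 852, 1395, 1642 and 1436 in the mutants of pairs 1 to 4, against 2724, 2454, 3201 and 2081 in their control littermates. Every mutant lay below every control, and the groups averaged 1331 ± 337 in mutants and 2615 ± 471 in controls (SD, n = 4 each). Of 17997 genes measured in all 4 pairs, 1.79% had mutant levels wholly below the control levels. The log2 ratios were -1.68, -0.81, -0.96 and -0.54, with a mean of -1.0 ± 0.49 (SD, n = 4), which is 2.00-fold lower in mutants. The SD was large: 2.26% of genes tested had a larger one, and pair 1 lay lowest.

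Across the array, 18 of 18025 genes had a lower mean ratio than Cldn10. It was called lower in the fit over all genes, as 1 of the 80 lower genes given above as 0.444%, and since the gene was picked from this contrast nothing is read from that call. The mean ratio was -1.32 over the pairs with the mutant in Cy5 and -0.67 over those with the mutant in Cy3. Without pair 1 the genotype term of the fit, which weighs both dye orders equally, was -0.82 and Cldn10 was no longer called. It was called in 10 of 15 alternatives in all, and nothing is read from these calls either.

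Cldn11, the myelin claudin, was read by a probe at chr3:31062922-31062981. Its intensity was 11335, 12400, 9007 and 9039 in mutants, against 14666, 13461, 13009 and 11585 in controls. The mutant was below its own littermate in each pair, while the mutant of pair 2 exceeded the control of pair 4, so the groups overlapped. The log2 ratios were -0.37, -0.12, -0.53 and -0.36, with a mean of -0.34 ± 0.17 (SD, n = 4). A ratio below 0 in all 4 pairs was found for 7.33% of the 17997 genes, and 1.43% of genes tested had a lower mean ratio than Cldn11. It was not called in the fit over all genes.

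Cldn5, the endothelial claudin (probe at chr16:18778046-18778105), had intensities of 3572, 3528, 5028 and 3705 in mutants, against 3764, 4364, 5982 and 3626 in controls. Both animals of pair 3 were higher than all others, and the groups overlapped. The log2 ratios were -0.08, -0.31, -0.25 and 0.03, with a mean of -0.15 ± 0.16 (SD, n = 4), so the mean was no larger than the spread over pairs.

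**Figure D1:**
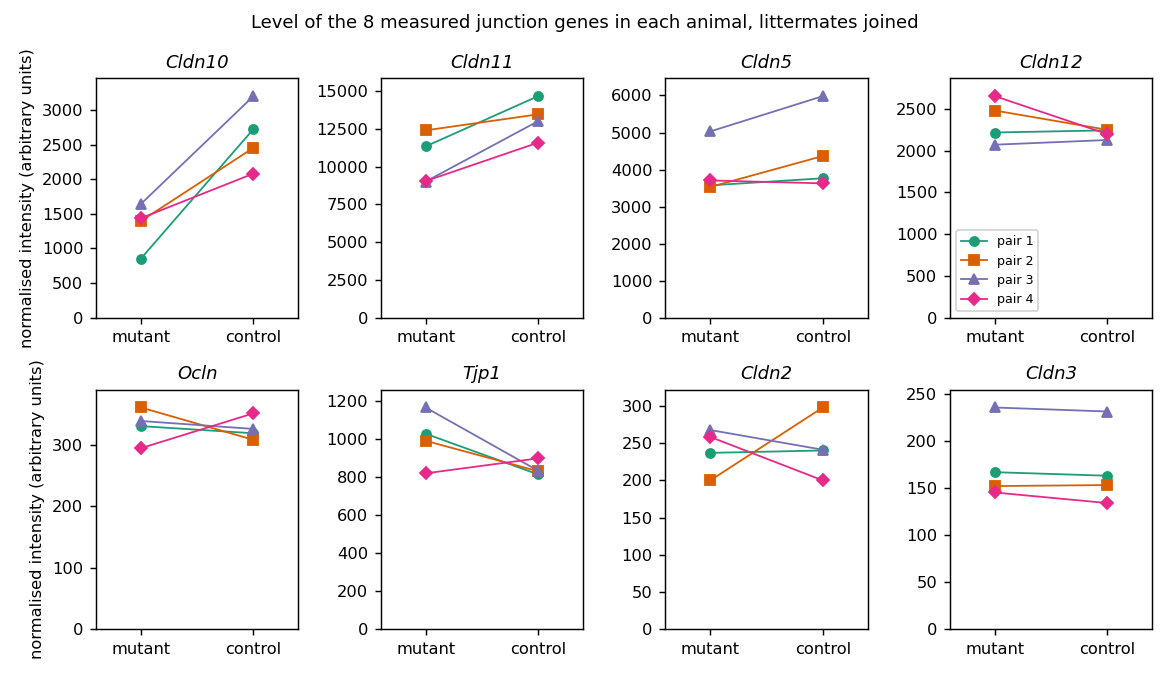
Normalised intensity (arbitrary units, linear axis from 0) of the 8 measured junction genes in each mutant (left) and control (right), with littermates of 1 pair joined by a line. For Cldn10 all 4 mutants, at 852 to 1642, lie below all 4 controls, at 2081 to 3201; for the other 7 genes the groups overlap.

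Cldn12 and the general junction components Tjp1 and Ocln had mean ratios of 0.02 to 0.24, none larger than its SD over pairs. Cldn12 (probe at chr5:5505502-5505561) had 2220, 2483, 2073 and 2656 in mutants, against 2245, 2251, 2130 and 2200 in controls, a log2 ratio of 0.09 ± 0.15. Tjp1, the gene of the scaffold that ties claudins and occludin to actin, had 1027, 990, 1165 and 818 in mutants, against 813, 829, 832 and 897 in controls, read by probe A_51_P390739 at chr7:72441703-72441762. The mutant was above its littermate in pairs 1 to 3 and below it in pair 4, and the log2 ratio averaged 0.24 ± 0.26. The mean was 0.41 with the mutant in Cy5 and 0.06 with the mutant in Cy3.

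The second Tjp1 probe, shown above, was above background in 2 mutant and 2 control channels and read -0.01 ± 0.11. Occludin, a membrane-spanning junction protein, had 330, 361, 339 and 294 in mutants, against 319, 308, 326 and 351 in controls, a log2 ratio of 0.02 ± 0.20 with probe A_51_P486150 at chr13:101268114-101268173. Its second probe was above background on no array, in either channel.

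The claudins known from choroid plexus showed no common direction. Cldn2, which forms a pore for cations and water, had 237, 200, 268 and 259 in mutants, against 240, 298, 241 and 200 in controls (probe at chrX:136345244-136345303). The order of the genotypes turned between pairs, with log2 ratios of -0.02, -0.58, 0.15 and 0.37 and a mean of -0.02 ± 0.40; 4.24% of genes tested had a larger SD. Cldn3, a sealing claudin, had 167, 152, 236 and 145 in mutants, against 163, 153, 232 and 134 in controls (probe at chr5:135463179-135463238). Littermates had nearly equal Cldn3, at 0.04 ± 0.05, and both animals of pair 3 were the highest.

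Cldn1, a sealing claudin of epithelia, was not tested, because neither of its probes passed the filter. Probe A_51_P481958 was above background on no array and probe A_52_P48681 in 2 mutant and 2 control channels, so no fold is given.

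**Figure D2:**
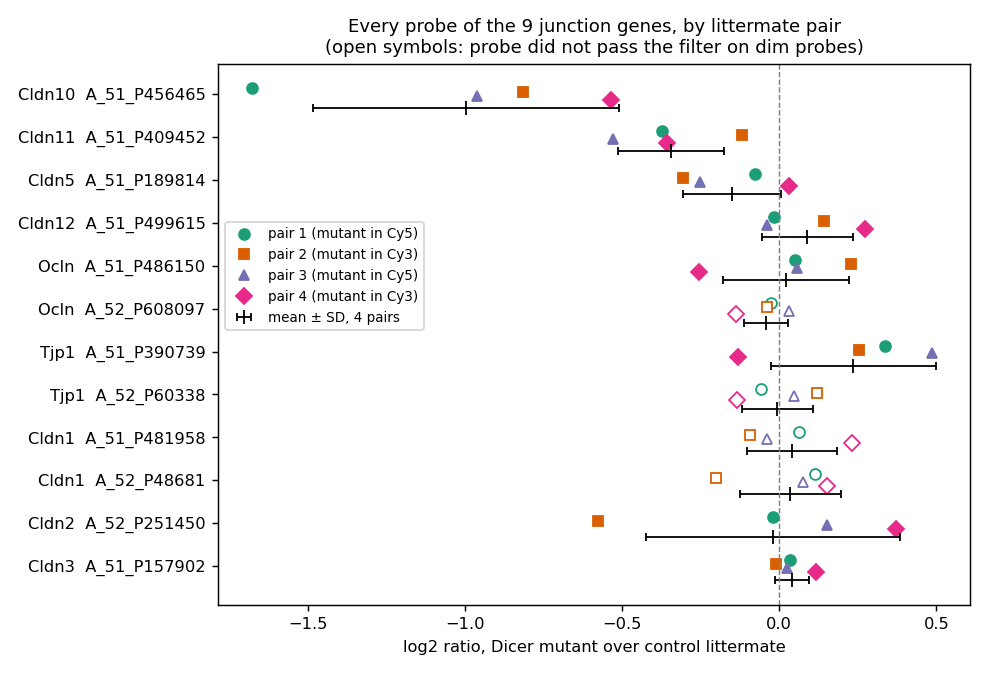
Log2 ratio of mutant over control (horizontal axis) for all 12 probes of the 9 genes, 1 symbol per littermate pair, with the mean and SD over 4 pairs as a black bar under each row. All 4 Cldn10 and all 4 Cldn11 symbols lie below 0, and open symbols mark the 4 probes that did not pass the filter.

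The claudins were set beside marker genes of the cells they are known from, to show what else was measured for those cells in the same pairs. The marker lists were chosen with earlier results of these data known, so counts over them are descriptions. Of 18 astroglial markers, 3 rose (0.588% of all genes did) and 5 fell (0.444% of all genes did) in mutants. Aldh1l1, a folate enzyme, rose by 1.5 ± 0.23 (limma adjusted p = 0.00529), Gfap, the astroglial intermediate filament, by 1.47 ± 0.35 (adjusted p = 0.0137) and the urea transporter Slc14a1 by 0.98 ± 0.23 (adjusted p = 0.0135), on the log2 scale. Those that fell were Dao, a D-amino acid oxidase of cerebellar astroglia, at -1.39 ± 0.23 (adjusted p = 0.00757), the neurotensin receptor Ntsr2 at -1.01 ± 0.26 (adjusted p = 0.0270), the glutamate transporter Slc1a2 at -0.57 ± 0.11 (adjusted p = 0.0271), the calcium-binding S100b at -0.56 ± 0.09 (adjusted p = 0.0231) and the water channel Aqp4 at -0.54 ± 0.26 (adjusted p = 0.0262). The other detected probes of Slc1a2 read -0.29 and -0.26, and those of Gfap 0.75 and 0.91. Over 15 alternatives in the processing or the pairs used, Aldh1l1 and Gfap were called in all and Slc14a1 and Dao in 14. Ntsr2 was called in 11, S100b in 10, and Slc1a2 and Aqp4 in 7 each. Without pair 1 Slc14a1, Ntsr2, S100b, Slc1a2 and Aqp4 were not called, and without pair 3 the last 4 of these were not. Over all genes 41 were called higher and 11 lower without pair 1, and 63 and 32 without pair 3. With all pairs the counts were 106 and 80.

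In the list as a whole, 13 of 18 ratios were below 0, as were 49.1% of all genes, and the median was -0.28, against 0.00 over all genes. In the limma fit 14 of the 18 had an unadjusted p under 0.05, against 1692 of all 18025 genes. Summed intensity of the list ran from 307220 to 350231 in mutants, against 382540 to 418320 in controls. The sum is weighted to the brightest probes, such as S100b with a mean of 66367 in mutants and 98182 in controls and Aldoc, a glycolytic enzyme, with 112794 in mutants and 130402 in controls (log2 ratio -0.21, adjusted p = 0.378). Each of the 18 markers was above background. The list median was -0.31, -0.48, -0.31 and -0.28 in pairs 1 to 4. Cldn10 lay below it in each pair, with differences of -1.37, -0.33, -0.65 and -0.25 on the log2 scale and an average of -0.65 ± 0.51 (SD, n = 4). Of the 18 markers, 2 (Dao and Ntsr2) had a mean ratio below that of Cldn10. The part of cell number in the lower Cldn10 was not tested.

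Cldn11 lay within its marker list. Of 12 oligodendrocyte and myelin genes none passed the limma test, and 3 had an unadjusted p under 0.05 (1692 of all 18025 genes did). Of the 12 ratios, 11 were below 0 (49.1% of all genes were), with a median of -0.26 that was -0.11 without pair 3 and -0.41 without pair 1. Summed intensity ran from 200608 to 252632 in mutants, against 237864 to 294967 in controls. The list median was -0.15, -0.24, -0.64 and 0.01 in the 4 pairs, and Cldn11 differed from it by -0.23, 0.12, 0.11 and -0.37, so it was above the myelin median in pairs 2 and 3 and below it in pairs 1 and 4. Opalin, a myelin membrane protein, was the 1 marker with a lower mean ratio than Cldn11. The part of oligodendrocyte number in the Cldn11 values was not tested.

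For endothelium, none of 18 markers passed, none at an unadjusted p under 0.05 either. Their median was -0.08 (-0.04 without pair 3) with 17 of 18 ratios below 0 (49.1% of all genes were). By pair the list median was -0.002, -0.06, -0.21 and -0.06. Summed intensity ran from 43006 to 57842 in mutants, against 52287 to 53499 in controls. Cldn5 differed from the list median by -0.07, -0.25, -0.04 and 0.09 in the 4 pairs, and 3 of the 18 markers had a lower mean ratio. Of 10 markers of pericytes and mural cells none passed (1 at an unadjusted p under 0.05), with a median of -0.09 that was -0.16, -0.16, -0.03 and -0.06 with pairs 1 to 4 left out in turn.

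Of the marker lists, that of choroid plexus differed most between pairs, and its median over genes of 0.14 was 0.22, 0.39, 0.05 and -0.15 with pairs 1 to 4 left out in turn. Its median ratio was 0.13, -0.58, 0.40 and 0.49 in pairs 1 to 4, where Cldn2 had -0.02, -0.58, 0.15 and 0.37, so both were below 0 in pair 2 and above 0 in pairs 3 and 4. The difference of Cldn2 from the list was -0.13 ± 0.11 (SD, n = 4), narrower than the SD of 0.40 of Cldn2 itself. Summed intensity of the 13 measured markers ran from 56638 to 82938 in mutants, against 46811 to 79322 in controls, and none passed the test (1 at an unadjusted p under 0.05). How much choroid plexus each dissected cerebellum carried was not tested. Cldn3 did not follow the list: its difference from the median was -0.10, 0.57, -0.38 and -0.37 in pairs 1 to 4.

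Markers of 2 further cell types were measured beside these. Of all 18025 genes, 1692 had an unadjusted p under 0.05 in the limma fit. Of 10 meningeal fibroblast genes none passed (2 at an unadjusted p under 0.05) and the median was 0.11 (0.07 without pair 2 and 0.21 without pair 3), and of 4 measured ependymal genes none passed (2 at an unadjusted p under 0.05) and the median was 0.18, which was 0.37, 0.12, -0.05 and 0.24 with pairs 1 to 4 left out in turn.

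**Figure D3:**
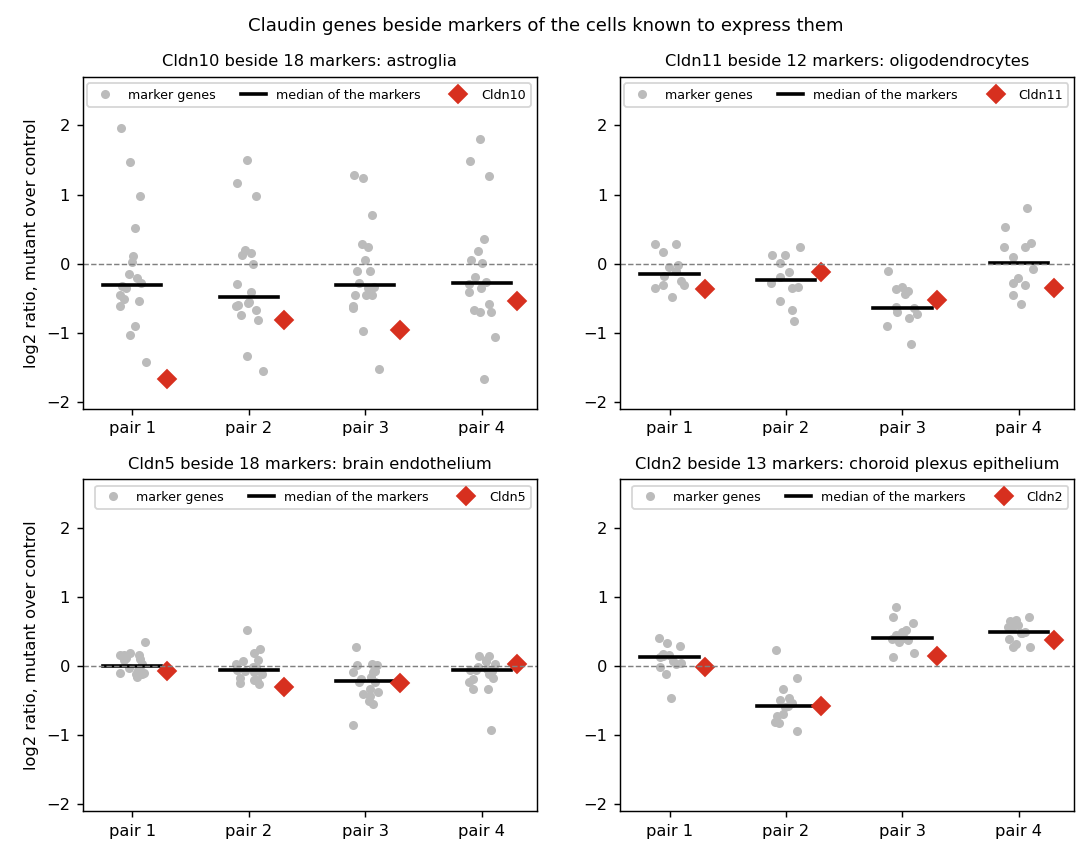
Log2 ratio of mutant over control in each littermate pair for Cldn10, Cldn11, Cldn5 and Cldn2 (red diamonds) beside the markers of the cell type each is known from (grey points, with their median as a black line). Cldn10 lies below the astroglial median in all 4 pairs, while Cldn2 and the median of the choroid plexus markers are both at -0.58 in pair 2.

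Other genes of the tight junction were taken from 3 lists of 59 genes, of which 55 were on the array and 40 tested. These lists too were chosen with earlier results of these data known, so counts over them are descriptions. Of the 40, 2 rose (0.588% of all genes did) and 1 fell (0.444% of all genes did), and 37 did not pass. In the limma fit 7 of the 40 had an unadjusted p under 0.05, against 1692 of all 18025 genes. The median ratio of the 40 was -0.03, with 24 ratios below 0 and 16 above. Amot and Jam2 rose and Rab13 fell.

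The scaffold and plaque list held the largest of these differences. Amot, the gene of angiomotin, a protein that binds junctional scaffolds and Hippo pathway components, had 8518, 8285, 10015 and 9347 in mutants, against 3967, 5083, 4388 and 5125 in controls. All mutants were above all controls. How many of all genes had mutant levels wholly above the control levels, or a ratio above 0 in all 4 pairs, was not counted. Amot was named because it passed the test. The log2 ratio was 0.97 ± 0.22 (SD, n = 4; limma adjusted p = 0.00685; higher in 4 of 4 pairs), read at chrX:141881178-141881237, and its 2 other probes were not above background on any array. It was called in all 15 alternatives.

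Rab13, a small GTPase that carries junction proteins to the membrane, had 127, 142, 163 and 160 in mutants, against 188, 181, 250 and 215 in controls. The mutants lay below the controls, as in 1.79% of the 17997 genes measured in all 4 pairs. The log2 ratio was -0.49 ± 0.12 (limma adjusted p = 0.0317), read at chr3:90027732-90028417. It was below 0 in 4 of 4 pairs, as in 7.33% of those genes. Its second probe was above background in 1 mutant channel and read 0.07. Rab13 was called in 10 of 15 alternatives, not without pair 1 or without pair 3, where fewer of all genes were called too. Its ratio was -0.83 with the scanner's processed signals. With the outlier flags applied after the background fit it was -0.36 (limma adjusted p = 0.392).

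Among 9 tested membrane proteins, Jam2, an adhesion molecule of endothelial and glial junctions, had 2107, 2383, 2132 and 2833 in mutants, against 1466, 1324, 1723 and 1802 in controls. Each mutant was above each control. That separation, and a ratio above 0 in all 4 pairs, were not counted over all genes. Jam2 too was named because it passed the test. The log2 ratio was 0.58 ± 0.23 (limma adjusted p = 0.0362; higher in 4 of 4 pairs), read at chr16:84821508-84823051, and a second detected probe read 0.26 ± 0.04. It was called in 7 of 15 alternatives, and with the mean over both probes or without pair 1 or pair 3 it was not. Fewer of all genes were called without pair 1 or pair 3 as well. Lsr, a receptor found where 3 cells meet, stood at -0.19 ± 0.11 (adjusted p = 0.402) and Jam3, a relative of Jam2, at 0.11 ± 0.15 (adjusted p = 0.722); neither passed.

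Few other claudins could be tested. Of 16 further claudin or claudin domain genes on the array, 8 were above background in no channel and 5 were tested. None of the 5 passed, and none had an unadjusted p under 0.05. Cldn15 stood at 0.13 ± 0.14 (adjusted p = 0.646), Cldn14 at -0.11 ± 0.21 (adjusted p = 0.691) and the claudin domain gene Cldnd2 at -0.03 ± 0.08 (adjusted p = 0.950).

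**Figure D4:**
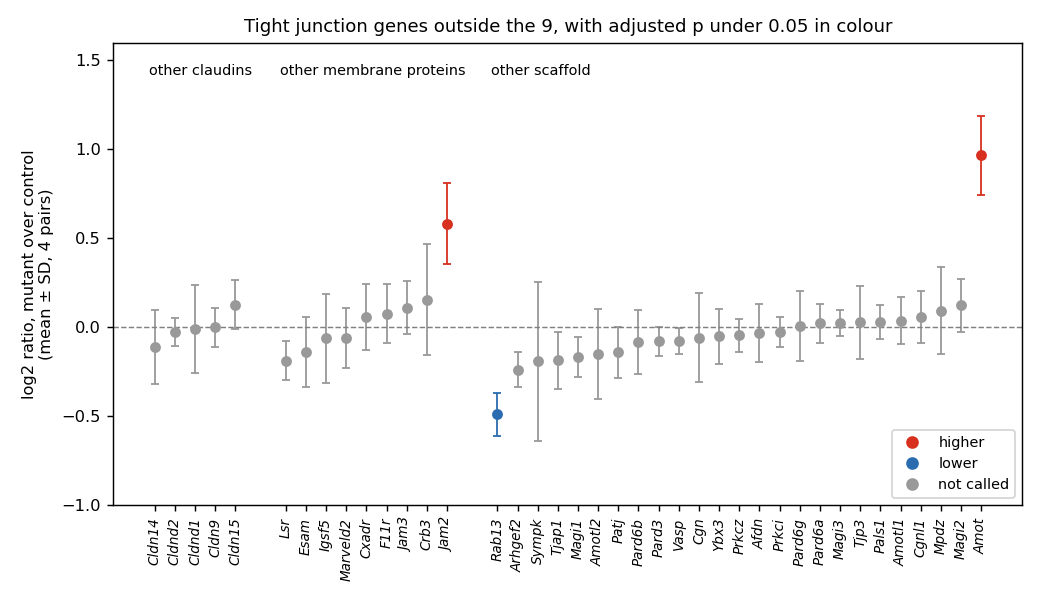
Log2 ratio of mutant over control (mean ± SD over 4 pairs) of the tested tight junction genes outside the 9, all but 1 of 40, grouped into claudins, membrane proteins, and scaffold and plaque proteins. Amot at 0.97 and Jam2 at 0.58 (red) were higher and Rab13 at -0.49 (blue) was lower; those in grey did not pass.

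The genes whose ratios over the 4 pairs were nearest to those of each claudin were found by the root mean square difference on the log2 scale, over all genes tested. Nearest to Cldn10 were Luzp2 (0.354), 2810032G03Rik (0.385) and Cxcl14 (0.388), with mean ratios of -0.83, -0.87 and -1.01. None of these 3 was as low as Cldn10 in pair 1, where they had -1.03, -1.07 and -1.07. Nearest to Cldn11 were Bag3 (0.0535), Adgrg1 (0.0599) and Exoc3l4 (0.0636), and among those nearest to Cldn5 were Hras (0.0165) and Edil3 (0.0280). Over 4 pairs these likenesses are a description only.

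**Figure D5:**
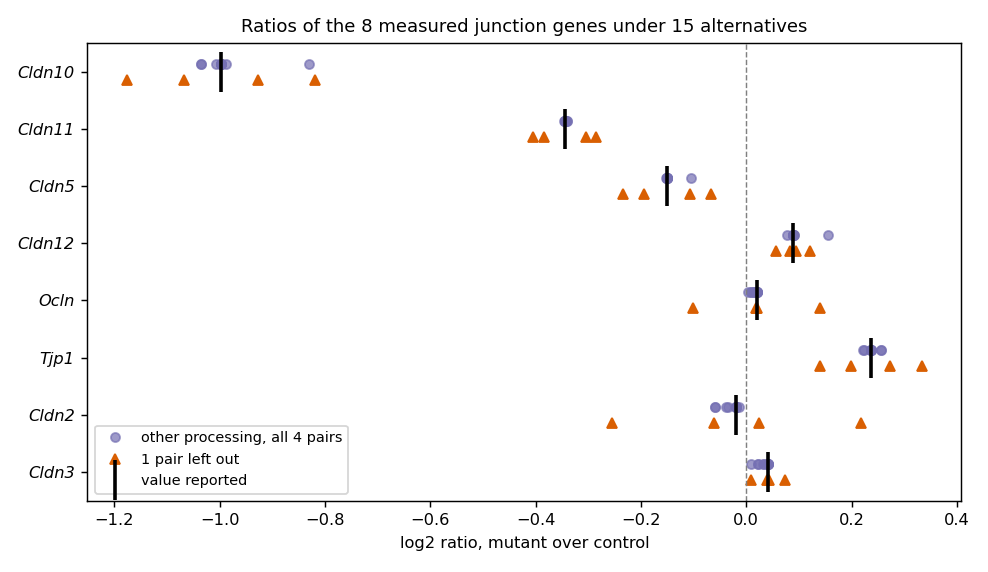
Log2 ratio of mutant over control of the 8 measured junction genes as reported (black bar), under 11 other ways of processing all 4 pairs (circles) and with 1 pair left out (triangles). The changes of filter, probe choice, dye term, variance model and replicate block left these ratios as reported. Cldn10 runs from -1.18 to -0.82 and Cldn11 from -0.40 to -0.28, while Cldn2 and Ocln have values on both sides of 0.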

How the data were processed

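Each array file holds linear spot and background intensities of both dyes, read by the authors with Agilent Feature Extraction 10.5.1.1, per the file headers, and quality flags, used as deposited. The deposited value table holds log10 ratios, which matched the scanner's own ratios turned to mutant over control within 4.84e-06, with a median of 0 per array. The labels give 500 ng of total RNA as the start of each channel.

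Mean intensities were corrected with normexp (offset 50), leaving out spots with an outlier flag (143 to 248 per array; none on a probe of the 9 genes), and normalized by loess within arrays in limma 3.58.1 (R 4.3.3). Levels were also scaled between arrays on mean brightness. A probe passed if well above background in the mutant or the control channel of all 4 arrays, with a value on at least 3, and the brightest such probe stood for a gene. limma tested log2 ratios with dye and genotype terms over 18025 genes, 28 of which lacked 1 array. Each littermate pair shared an array, so every ratio is paired (channels of 1 array correlated at 0.394 to 0.704 after dye and genotype were fitted out, and others at 0.316 or less). All arrays were on 1 slide with 1 scan. The fit was run on simulated data with planted differences and noise drawn independently for each gene and array. This checked the code only and says nothing on the calls made here.

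The members, lists and order of steps were chosen with earlier results of these data known. Named were all members, the called genes of each list, the 3 other junction genes of each list with the smallest p, and the 3 genes nearest to Cldn10, Cldn11 and Cldn5; 1 gene of the scaffold list and 1 near Cldn5 are not reported here. The genes used to check the tissue were chosen after the values had been seen. Alternatives changed background, normalization, filter, probe choice, dye term, variance model, pairing and pairs used. Ratios with 1 pair left out are the genotype term of the fit, which weighs both dye orders equally, and not the plain mean of the remaining pairs.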

Additional observations from a re-analysis of the deposited data

Results flagged for a closer look

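Of 47 sets of 4 values looked at, 3 had 1 pair far from the others, with a gap to the nearest value divided by the range, both on the log2 scale, above Dixon's critical value; chance gives this in about 1 of 20 sets. The mutant level of Cldn5 probe A_51_P189814 had a quotient of 0.863, where the mutant of pair 3 had 5028 against 3528 to 3705 in the other mutants, and its control littermate was also the highest control at 5982. The mutant level of Tjp1 probe A_52_P60338, a dim probe that did not pass the filter, had a quotient of 0.858, where the mutant of pair 1 had 140 and its littermate 146. The median log2 ratio of astroglia had a quotient of 0.847, where pair 2 stood at -0.48 against -0.31 to -0.28 in the others.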

How the results depend on the processing

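Under 15 alternatives the ratios of the 8 measured genes moved by less than 1 SD over pairs. For many of these that was fixed in advance. The changes of filter, probe choice, dye term, variance model and replicate block left these ratios as they were. With 1 of 4 pairs left out, neither a mean nor the genotype term of the fit can move by as much as 1 SD of the 4 values. Cldn10 ran from -1.18 to -0.82 and was called lower in 10 of 15. It was not called without background subtraction, with the processed signals, with the value table, with no replicate block or without replicate 1. As Cldn10 was picked from this contrast, nothing is read from these calls. Cldn11 ran from -0.40 to -0.28, Cldn5 from -0.23 to -0.07, Tjp1 from 0.14 to 0.33, Cldn2 from -0.26 to 0.22 and Ocln from -0.10 to 0.14. Over all genes, the counts were 50 higher and 32 lower with the outlier flags applied after the background fit, 53 lower with the processed signals and 49 lower with the value table. Leaving out 1 pair gave 41 to 215 genes higher and 11 to 127 lower. Of the other tight junction genes, 1 was higher (Amot, in every alternative) with the flags after, the processed signals, the value table, median centring, the mean over probes and no replicate block, and 1 to 2 with 1 pair left out. Those lower numbered 0 with the flags after, median centring and no replicate block, 2 (Rab13 among them) with no dye term, and 0 to 2 with 1 pair left out, 0 without replicate 1 or 3 and 2 without replicate 4. Jam2 and Rab13 missed the threshold without replicate 1 or 3. The median of the astroglial markers was -0.39 without replicate 4. The causes were not tested.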
